A study of Mus musculus with 6 samples.

Results

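Chemokines are small secreted proteins that attract leukocytes by binding receptors on their surface, and fibroblasts are a tissue source of many of them. Their genes are named after the spacing of the first cysteines in the protein, as CC, CXC, CX3C and XC ligands. Some are switched on mainly by interferon, through factors such as Stat2, Irf9 and Irf1, others by tumour necrosis factor or interleukin-1 through NF-kB, and others again, such as Cxcl12, are made by stromal cells without a stimulus. All probes on the arrays whose gene name is that of a CC, CXC, CX3C or XC ligand were taken, which gave 46 of 55681 probes and 37 genes of 35527 gene names. Of these genes, 16 were well above background on all 6 arrays and 14 were on none.

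The arrays, in 1 color, came from 3T3 cells, a fibroblast line established from mouse embryos. The cells were treated for 48 h with 50 nM GapmeR Ntep or 50 nM GapmeR control (the study's array record writes 2 × 50 nM), and the sources used here name no added cytokine. A GapmeR is an antisense oligonucleotide with a DNA centre that directs RNase H to a complementary RNA, here the long noncoding RNA Ntep. Each of 3 independent experiments gave 1 array per GapmeR, and all arrays were on 1 slide with the same scan time. All p-values therefore rest on 3 arrays against 3, 1 sequence of GapmeR Ntep and 1 cell line. Signals are background-subtracted intensities after quantile normalization, in array units, with values under 20 set to 20. They compare arrays for the same probe, not genes with each other.

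Ntep, named A630089N07Rik in the files, was measured by 1 probe, at 472, 91.5 and 226 in experiments 1, 2 and 3 with the label GapmeR Ntep and at 271, 272 and 361 with the label GapmeR control. The log2 difference was -0.48 (SE 0.58, limma adjusted p = 0.632). In experiment 1 the probe went against its label, and directions below are those of the labels. Of 10 fibroblast markers, 9 were well above background on all 6 arrays, and Fap was at the floor of 20 on every one. Their summed signal was 555675 to 737369 with GapmeR Ntep and 808011 to 891112 with GapmeR control, and 8 of the 9 tested were negative, with a median log2 difference of -0.47, though none passed a rule. Among them, the collagen genes Col1a1 (-0.53, -0.11 and -0.66 in experiments 1 to 3) and Col3a1 (-1.15, -0.61 and -0.68) had the same sign in experiment 1 as in the others. Vim (0.07, -0.24 and -0.20) and Thy1 (-0.03, 0.35 and -0.16) changed sign between experiments, and the other tested markers were negative in each experiment. The part of these shifts in the chemokine differences was not tested. Between 43.7% and 53.3% of all probes were well above background per array.

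Promoter sequence is shown for the interferon-linked chemokines, those that passed the fold and p limits given below and the brightest NF-kB-linked ones, as far as the RefSeq table for GRCm38.p6 used here holds them. It held 26 of the 37 genes. Printed are the 250 bases before the start of transcription, 5′ to 3′ on the strand of the gene, with matches to an interferon-stimulated response element core (GAAA, any 2 bases, GAAA), an interferon-gamma-activated GAS element (TTC, any 3 bases, GAA) or the kB consensus in capitals, searched on both strands. Matches of the kB consensus on opposite strands overlap by all but 1 base in Cxcl1.
Cxcl9 (chr5:92328080-92328329, reverse strand): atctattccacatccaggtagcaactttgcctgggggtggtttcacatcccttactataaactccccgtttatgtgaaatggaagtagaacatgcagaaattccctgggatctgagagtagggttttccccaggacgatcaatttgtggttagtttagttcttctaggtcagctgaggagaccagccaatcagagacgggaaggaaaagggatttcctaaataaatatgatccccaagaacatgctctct
Cxcl10 (chr5:92348890-92349139, reverse strand): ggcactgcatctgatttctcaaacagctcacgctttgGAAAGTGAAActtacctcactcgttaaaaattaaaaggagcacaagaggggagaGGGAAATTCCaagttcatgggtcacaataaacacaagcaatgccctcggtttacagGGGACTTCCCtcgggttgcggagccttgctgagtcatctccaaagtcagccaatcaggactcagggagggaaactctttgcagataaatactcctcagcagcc
Cxcl1 (chr5:90890995-90891244, forward strand): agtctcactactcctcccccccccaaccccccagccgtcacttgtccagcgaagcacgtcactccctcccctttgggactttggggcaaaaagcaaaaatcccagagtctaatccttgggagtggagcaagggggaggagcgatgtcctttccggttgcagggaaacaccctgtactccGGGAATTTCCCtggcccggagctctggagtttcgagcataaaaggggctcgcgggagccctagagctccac
Ccl8 (chr11:82114935-82115184, forward strand): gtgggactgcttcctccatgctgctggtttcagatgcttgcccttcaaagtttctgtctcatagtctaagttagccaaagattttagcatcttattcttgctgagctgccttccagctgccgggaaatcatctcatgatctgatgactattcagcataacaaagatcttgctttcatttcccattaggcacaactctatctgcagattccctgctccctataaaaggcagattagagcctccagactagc
Ccl9 (chr11:83578637-83578886, reverse strand): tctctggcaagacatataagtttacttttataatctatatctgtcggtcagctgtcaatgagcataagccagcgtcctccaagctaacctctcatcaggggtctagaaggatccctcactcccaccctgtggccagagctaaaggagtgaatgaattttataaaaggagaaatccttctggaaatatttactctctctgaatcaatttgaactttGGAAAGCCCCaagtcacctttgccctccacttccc
Ccl12 (chr11:82101595-82101844, forward strand): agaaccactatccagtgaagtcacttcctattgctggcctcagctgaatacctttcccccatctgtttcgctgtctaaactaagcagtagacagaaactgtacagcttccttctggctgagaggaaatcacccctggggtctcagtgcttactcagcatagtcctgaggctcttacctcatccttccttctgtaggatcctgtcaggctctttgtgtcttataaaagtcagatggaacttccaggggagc
Cxcl12 (chr6:117168285-117168534, forward strand): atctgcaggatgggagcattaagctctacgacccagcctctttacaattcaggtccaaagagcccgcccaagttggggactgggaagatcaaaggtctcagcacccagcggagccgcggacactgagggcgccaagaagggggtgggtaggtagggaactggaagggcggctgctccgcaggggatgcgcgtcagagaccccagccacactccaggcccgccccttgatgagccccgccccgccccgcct
Cxcl10 has matches of more than 1 kind, a response element core with its first base at -213 from the start and kB matches at -159 and -103. Cxcl1 has its kB match at -71 and Ccl9 at -35. Cxcl9, Ccl8, Ccl12 and Cxcl12 have no match to these letters in the window. Over the 26 chemokine genes the response element core occurs in 3, the GAS letters in 2 and the kB consensus in 6, and over all 32851 windows of this length in 2.98%, 7.02% and 3.9%.

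A test was run where the brighter group's mean signal reached 50, which held for 23 of the 37 genes. With GapmeR Ntep, 15 of the 23 were lower and 8 higher, with a median log2 difference of -0.42 against 0.06 over all 22078 gene names tested, 45.7% of which were lower. At a fold change of 2 and an unadjusted limma p under 0.01, 7 chemokine genes were lower (30.4%), where 5% of all gene names were. These are Cxcl9, Cxcl10, Ccl7, Ccl8, Ccl9, Ccl12 and Cxcl12. None was higher by that rule (2.89% of all gene names). After Benjamini-Hochberg adjustment, made over every probe that was tested on the array (adjusted p under 0.05, fold 2), Ccl8, Ccl9 and Ccl12 were lower, against 2.91% of all gene names, and none was higher, against 1.64%. Ccl9 and Ccl12 met the signal limit of 50 through the controls alone, with means of 257 against 49.8 and 61.1 against 21.3. Their calls therefore lean on the group where they are high. With a filter that asked for all arrays of a group well above background, Ccl12 was not tested. A gene stands here for its brightest probe, and when any of its tested probes may pass, Cxcl9 and Cxcl12 join Ccl8, Ccl9 and Ccl12 (3.54% of all gene names). All 3 GapmeR Ntep arrays lay below all 3 GapmeR control arrays for 10 chemokine genes (15.4% of all gene names) and above them for Ccl21b alone (17.1%). Both counts change when arrays are left out: without GapmeR control replicate 1 or replicate 2 only Ccl8, Ccl9 and Ccl12 passed the unadjusted rule, and of these 3 genes only Ccl9 still passed after adjustment, and only without GapmeR Ntep replicate 2. No chemokine gene passed after adjustment without GapmeR Ntep replicate 3 or without any 1 control. Without GapmeR Ntep replicate 3 or control replicate 2, no probe of the whole array passed after adjustment. With the experiments as blocks, 6 chemokine genes were lower after adjustment in place of 3, and over the whole array 1857 probes in place of 921.

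**Figure D1:**
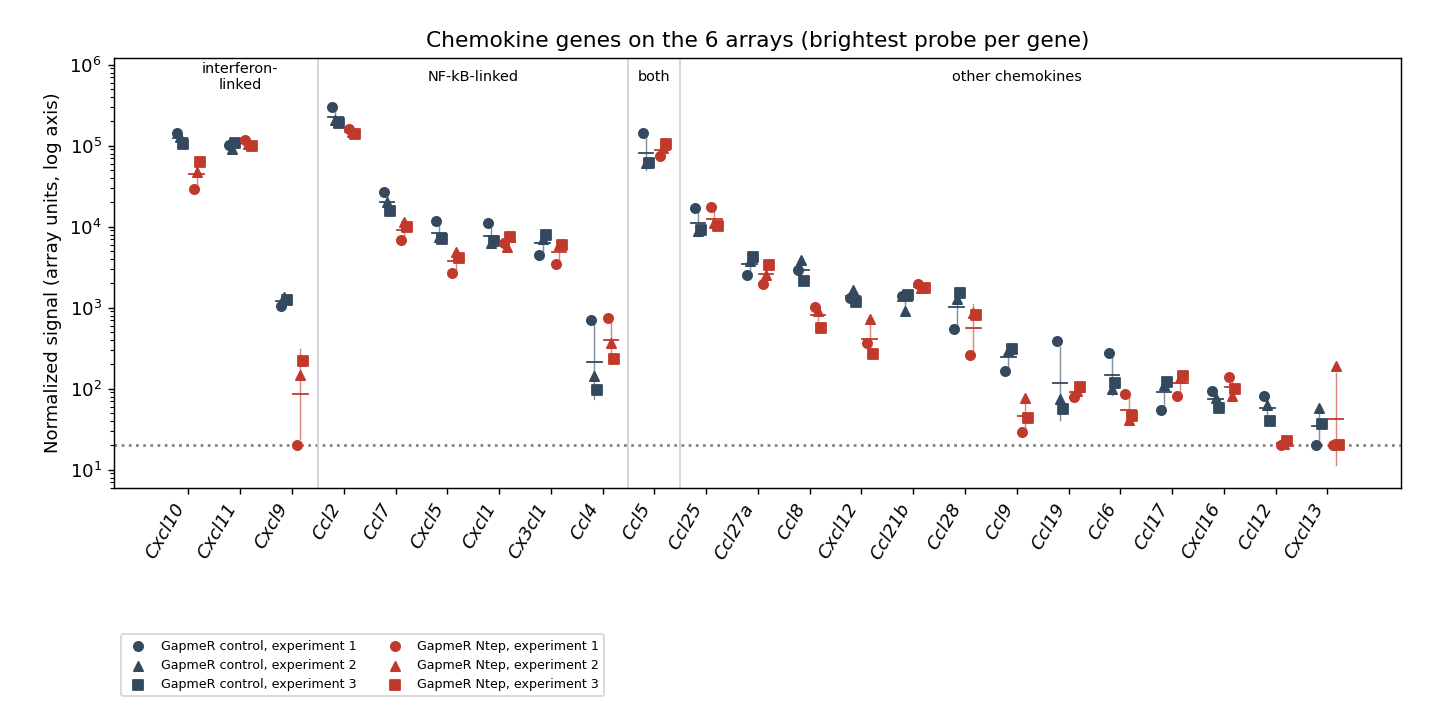
Normalized signal (log axis, array units) of the 23 tested chemokine genes on each array, with the mean and SD of the log2 values as a line and a bar and the floor of 20 dotted. Control points are dark and GapmeR Ntep points red. The groups are fully apart for Cxcl9, Cxcl10, Ccl2, Ccl7 and Cxcl5, among others, but not for Cxcl11, Cxcl1 or Ccl5.

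The interferon-linked chemokines Cxcl9, Cxcl10 and Cxcl11 all bind Cxcr3, the receptor of activated T cells and natural killer cells. Cxcl9 and Cxcl10 passed the unadjusted rule, lower on the arrays labelled GapmeR Ntep, and Cxcl11 passed neither rule. The median log2 difference of the 3 genes was -1.49, and within experiments it was -2.27, -1.44 and -0.76. Each of these medians is the value of Cxcl10.

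Cxcl9, the member that depends most on interferon-gamma, gave a signal of 20, 147 and 217 on the GapmeR Ntep arrays of experiments 1 to 3 and 1065, 1356 and 1231 on the GapmeR control arrays. All controls were well above background, while the GapmeR Ntep array of experiment 1 was at the floor and not well above background. The means were 128 ± 99.9 and 1217 ± 146 (SD, n = 3 each), and the log2 difference was -3.82 (SE 0.88, unadjusted p = 0.00475, limma adjusted p = 0.0631). Within experiments it was -5.74, -3.21 and -2.50, the first of which is limited by the floor. Leaving out GapmeR Ntep replicate 1 gave -2.76 (adjusted p = 0.029), a fold change smaller by more than 1.5 times, and blocking by experiment gave an adjusted p of 0.0454. A second probe of Cxcl9, at 28.6, 95.2 and 96.6 against 489.9, 623 and 618, differed by -3.16 (SE 0.50, adjusted p = 0.0326). For that probe the adjusted p was 0.0285 when GapmeR Ntep replicate 1 was left out, 0.0458 when replicate 2 was, and 0.0689 to 0.144 for the other arrays.

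Cxcl10, which interferons and NF-kB both induce, was among the brightest chemokines, at 29439.9, 47538 and 62443 on the GapmeR Ntep arrays and 141706, 129259 and 105634 on the controls. The lowest control array was 1.69 times the highest GapmeR Ntep array. The log2 difference was -1.49 (SE 0.31, unadjusted p = 0.00299, limma adjusted p = 0.0522), a 2.81-fold fall from 125533 ± 18323 to 46473 ± 16527 (SD, n = 3 each). Within experiments it was -2.27, -1.44 and -0.76. GapmeR Ntep replicate 1 was the lowest of its group and control replicate 1 the highest of its own. Without both arrays of experiment 1 the difference was -1.10 (adjusted p = 0.0761), and with experiments as blocks the unadjusted p was 0.0105, past the limit of 0.01.

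Cxcl11 was measured by 2 probes, and neither passed a rule. The brighter one gave 117639, 105634 and 100226 against 102128, 91480.3 and 106432, a log2 difference of 0.11 (95% interval -0.29 to 0.51, limma adjusted p = 0.707), and the dimmer one 2916, 2223 and 3215 against 2768, 2892 and 2397, a difference of 0.04 (-0.46 to 0.54). These intervals leave out the differences of Cxcl9 and Cxcl10. The groups overlapped for both probes. The probes lie at chr5:92788567-92788626 and chr5:92788640-92788699 in mm9. The brighter one contains the run CAGGACAGCCAGGGCT, shown because it is part of the B1 short interspersed repeat of the mouse, and this run occurs in 24 of the 32851 promoter windows. Runs of 16 bases of this probe occur in 55 promoter windows and in 19 array probes of other genes, and those of the dimmer probe in 10 windows and 2 probes. No other chemokine probe shared such a run with more than 2 windows or more than 2 probes of other genes. How much of the Cxcl11 signal comes from other transcripts with the repeat was not tested. Without Cxcl11, the median of the interferon-linked chemokines was -2.65, a choice made after the data were seen.

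**Figure D2:**
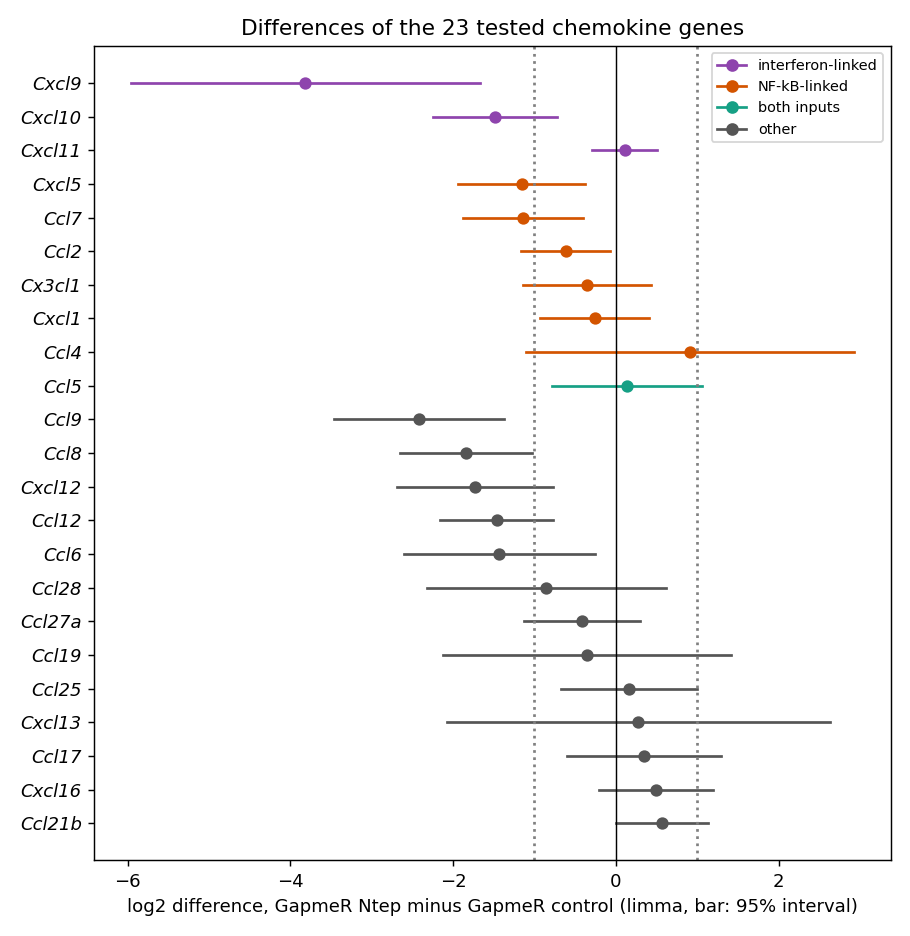
Log2 difference of each tested chemokine gene, GapmeR Ntep minus GapmeR control, as a point with its 95% interval from limma, colored by list, with dotted lines at a fold change of 2. Cxcl9 has the lowest value, at -3.82, while the interval of Cxcl11 lies between -0.29 and 0.51.

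Of 10 NF-kB-linked chemokines, 6 were tested. Their median log2 difference was -0.49, against -1.49 for the interferon-linked ones and 0.06 for all gene names. The -1.49 is the value of Cxcl10, which NF-kB also induces. Within experiments the median of the NF-kB-linked ones was -0.85, -0.37 and -0.43. Ccl7 was the only one of them to pass the unadjusted rule, and none passed after adjustment. The difference between the lists was not tested. The others, Ccl3, Ccl20, Cxcl2 and Cxcl3, were near the floor, with no array above 33.4.

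The 2 monocyte attractants Ccl2 and Ccl7, ligands of Ccr2, were lower in each experiment. Ccl2, measured by 10 spots of 1 probe, was the brightest chemokine signal, at 160317, 147691 and 137929 on the GapmeR Ntep arrays and 300100, 208209 and 188418 on the controls. The groups did not overlap, but the fall was under 2-fold, with a log2 difference of -0.62 (SE 0.23, limma adjusted p = 0.162). Ccl7 gave 6761, 11492 and 10056 against 26976, 19933 and 15596, a difference of -1.14 (SE 0.30, unadjusted p = 0.00874, adjusted p = 0.0815). The difference of Ccl7 was -2.0, -0.79 and -0.63 within the experiments and -0.71 without experiment 1, under 2-fold. It also missed the unadjusted limit in the limma fit with experiments as blocks (unadjusted p = 0.0246) and without each array other than control replicate 3.

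Cxcl1 and Cxcl5 attract neutrophils through Cxcr2. Cxcl5 was at 2661, 4923 and 4165 on the GapmeR Ntep arrays and at 11689.7, 7411 and 6988 on the controls, with no overlap and a log2 difference of -1.16 (SE 0.32, unadjusted p = 0.0111, limma adjusted p = 0.0917). Within experiments it differed by -2.13, -0.59 and -0.75, and without experiment 1 by -0.67. Cxcl1 gave 6351, 5554 and 7501 against 10957, 6211 and 6683, with overlap. Its difference of -0.26 (95% interval -0.93 to 0.41, adjusted p = 0.58) was 0.0027 without experiment 1 (adjusted p = 0.995). Control replicate 1 was the brightest array of all 6.

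Cx3cl1, a chemokine that stays attached to the cell membrane until it is cleaved, was at 3436, 5911 and 5889.9 against 4523, 7014 and 7879. The groups overlapped, with a log2 difference of -0.35 (95% interval -1.14 to 0.43, limma adjusted p = 0.523). Both arrays of experiment 1 were the lowest of their groups, and within experiments Cx3cl1 differed by -0.40, -0.25 and -0.42. Blocking by experiment gave a limma adjusted p of 0.153.

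Ccl4, which attracts macrophages and T cells, ran the other way, at 740.5, 371 and 230.3 on the GapmeR Ntep arrays and 696, 142 and 95.4 on the controls. Both arrays of experiment 1 were far above the others of their group. The log2 difference was 0.91 (95% interval -1.10 to 2.93, limma adjusted p = 0.519), and within experiments 0.09, 1.38 and 1.27. With 1 array left out it ran from 0.34 (without control replicate 3) to 1.77 (without control replicate 1). Without experiment 1 it was 1.33 (adjusted p = 0.108).

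Ccl5, a T cell and monocyte attractant that both interferon-regulated factors and NF-kB drive, was at 74189, 93092 and 103495 on the GapmeR Ntep arrays against 143238, 61923 and 60872 on the controls. Control replicate 1 was more than 2 times as bright as the other controls and above every GapmeR Ntep array, while all 3 GapmeR Ntep arrays were above control replicates 2 and 3. The log2 difference was 0.13 (95% interval -0.79 to 1.06, limma adjusted p = 0.848), made up of -0.95, 0.59 and 0.77 in the 3 experiments. Without both arrays of experiment 1, Ccl5 was higher in both remaining experiments, by 0.68 on average (adjusted p = 0.0828), where Cxcl10 was lower in both. Without control replicate 2 or replicate 3 the difference of Ccl5 was -0.06 or -0.075.

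Control replicate 1 was the highest control for 5 of the 6 tested NF-kB-linked chemokines, Cx3cl1 being the exception, and for Ccl5. It was the highest of the 3 controls for 9881 of 22078 gene names in all. On a log2 scale it exceeded the mean of the other controls by a median of 0.66 for the NF-kB-linked chemokines. For Ccl5 the excess was 1.22. The median was 0.05 for the interferon-linked chemokines and 0.03 over all gene names. The 0.05 is the value of Cxcl11, beside -0.28 for Cxcl9 and 0.28 for Cxcl10. Control replicate 1 was the highest control for 10 of 13 tested NF-kB signalling genes. Among them were Tnfaip3, at 7491, 2954 and 2734 in control replicates 1 to 3, and Relb, at 14124, 6032 and 6127. For these signalling genes GapmeR Ntep replicate 1 stood above the others of its group too, by a median of 0.23 against 0.62 for control replicate 1, with Tnfaip3 at 5615, 2920.4 and 2421 and Relb at 8246, 7605 and 5746. For the chemokines, GapmeR Ntep replicate 1 stood 0.35 below the others of its group in the NF-kB-linked list. It stood 0.89 below for the interferon-linked ones. The 0.89 is the value of Cxcl10, and the log2 offset was -3.16 for Cxcl9 and 0.19 for Cxcl11. Whether the Ntep probe, which was against its label in that experiment, has a part in this was not tested.

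**Figure D3:**
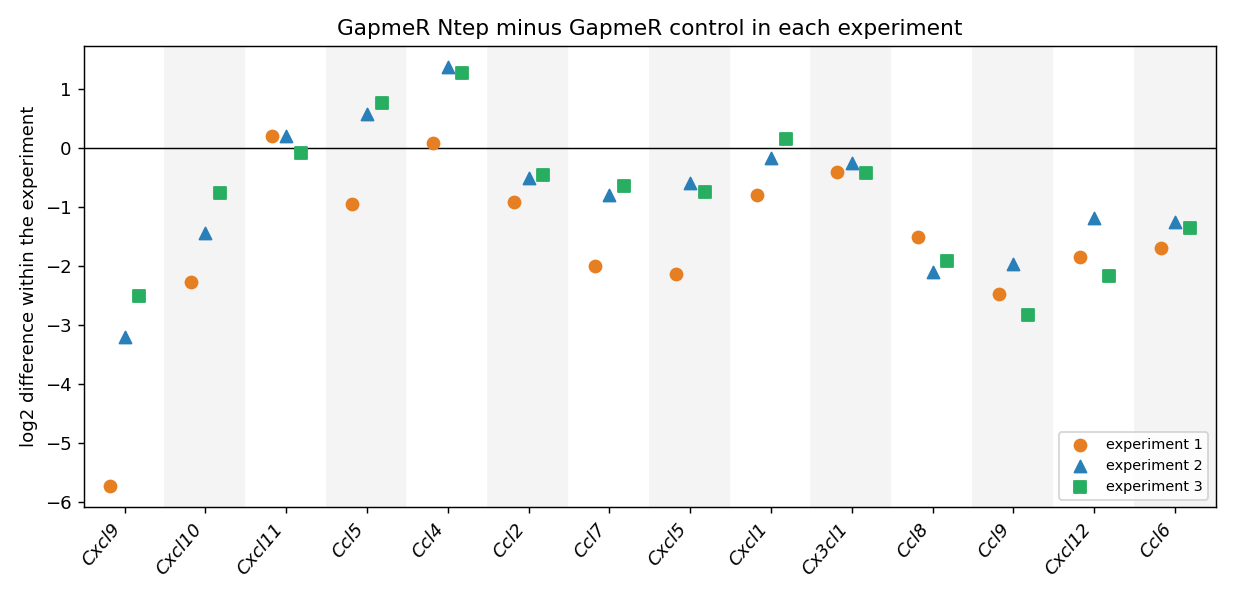
Log2 difference between the arrays of each experiment for 14 chemokine genes, 1 point per experiment. Cxcl9, Cxcl10, Ccl2, Ccl7, Cxcl5, Cx3cl1, Ccl8, Ccl9, Cxcl12 and Ccl6 lie below 0 in all 3 experiments. Ccl5 is below 0 in experiment 1 and above it in the others.

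With the second probe of Cxcl9 as an exception (limma adjusted p = 0.0326), the calls that passed after adjustment lay among the other chemokines. Of 23 listed genes, 13 were tested, with a median log2 difference of -0.42, and 4 passed the unadjusted rule, all lower: Ccl8, Ccl9, Ccl12 and Cxcl12.

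Ccl8, a monocyte and T cell attractant, lies in a gene cluster with Ccl2 and Ccl7. Its signal was 1019, 920.3 and 563 on the GapmeR Ntep arrays and 2897, 3937 and 2128 on the controls. The groups did not overlap, and the log2 difference was -1.84 (SE 0.33, limma adjusted p = 0.0387). Within experiments it was -1.51, -2.10 and -1.92, and with 1 array left out -2.06 to -1.58. The adjusted call was nevertheless lost without any 1 array, at 0.0608 (without GapmeR Ntep replicate 2) to 0.152 (without control replicate 2).

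Ccl9, a rodent ligand of Ccr1, was dimmer, at 29.4, 75.9 and 43.9 against 163, 295 and 313. All controls were well above background and 1 of the 3 GapmeR Ntep arrays was. The log2 difference was -2.42 (SE 0.43, limma adjusted p = 0.0371), and -2.47, -1.96 and -2.83 within experiments. It passed after adjustment without GapmeR Ntep replicate 2 (0.0412) and not without any other array (0.0614 to 0.156). With normexp background correction, which raises dim signals, it was -1.10 (adjusted p = 0.0339).

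Ccl6, a further ligand of Ccr1 and the gene beside Ccl9, was at 85.4, 41.5 and 45.9 against 278, 98.3 and 118, without overlap. It is named here after its values were seen. Its log2 difference of -1.43 (SE 0.48, limma adjusted p = 0.137) passed neither rule. Within experiments, however, it was -1.70, -1.25 and -1.36, and blocking by experiment gave an adjusted p of 0.0314. With normexp it was -0.49.

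Ccl12, a mouse ligand of Ccr2, was near background throughout. Its signal was 20, 20.9 and 22.9 on the GapmeR Ntep arrays, none of them well above background, and 81, 62.5 and 39.8 on the controls, of which 1 was. The measured log2 difference was -1.46 (SE 0.29, limma adjusted p = 0.0459), but against the dimmest signal that counts as well above background Ccl12 was only at least 1.13-fold lower. The adjusted call was lost without any 1 array (0.0749 to 0.177), and with normexp the difference was -0.41 (adjusted p = 0.164).

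Cxcl12, the ligand of Cxcr4 that stromal cells make without a stimulus, was measured by 2 probes for different transcripts. The brighter one, at chr6:117131227-117131286 in mm9, gave 369, 731 and 266 on the GapmeR Ntep arrays and 1332, 1657 and 1191 on the controls, a log2 difference of -1.73 (SE 0.39, unadjusted p = 0.00446, limma adjusted p = 0.0614). The dimmer one, at chr6:117125026-117125085, gave 138, 288 and 96.8 against 1274, 1404 and 1013, a difference of -2.96 (SE 0.42, adjusted p = 0.0281). Both probes were well above background on all 6 arrays, and the groups did not overlap for either. In each experiment the dimmer probe had the lower difference, at -3.21, -2.29 and -3.39 against -1.85, -1.18 and -2.16, and whether these differ was not tested. The brighter probe passed after adjustment with experiments as blocks (0.0345) and without GapmeR Ntep replicate 2 (0.039), where the difference was -2.14, and missed it without any other array (0.105 to 0.212). The dimmer one also passed with blocks (0.031). With 1 array left out it passed without GapmeR Ntep replicate 2 (0.0384) and missed it without any other (0.0634 to 0.132).

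For the remaining 8 tested chemokines, no difference passed either rule. Ccl21b, a ligand of Ccr7, was the only one above its controls on every array, at 1952, 1734 and 1755 against 1389, 909 and 1444 (log2 0.57, SE 0.23, limma adjusted p = 0.196). It shares a 16-base run with the probe of Ccl21a, which was at the floor on all arrays, so which copy was measured is uncertain. Ccl25, the thymic ligand of Ccr9, was bright at 17288, 11192 and 10114 against 16993, 8946 and 9163 and differed by 0.16 (-0.68 to 1.00), and by 0.16 and 0.27 at its other probes. The Ccr10 ligands Ccl27a and Ccl28 differed by -0.42 (-1.13 to 0.30) and -0.85 (-2.32 to 0.61). With experiments as blocks the limma adjusted p of Ccl28 was 0.0494, at under 2-fold. All 3 probes of Ccl27a were negative, from -0.61 to -0.42, and each shares runs of 16 bases with probes of other gene names, so that their signal may be mixed. Cxcl16, Ccl17, Cxcl13 and Ccl19, all dimmer than Ccl21b, differed by 0.49, 0.35, 0.28 and -0.35. Ccl19 reached 385 on control replicate 1 by its brightest probe and at most 70.5 on the controls by another. The 14 untested genes were Ccl1, Ccl3, Ccl11, Ccl20, Ccl21a, Ccl22, Ccl24, Ccl26, Cxcl2, Cxcl3, Cxcl14, Cxcl15, Cxcl17 and Xcl1. Of them, 8 were at the floor on all arrays, and the highest value of any was 58.9, for Ccl11.

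Many chemokine genes lie in clusters. In the cluster of Ccl2, Ccl7, Ccl11, Ccl12, Ccl8 and Ccl1 (chr11:81850650-81990227 in mm9, from first to last probe), the 4 tested genes were all negative, from -1.84 to -0.62. In the cluster of Ccl5, Ccl9, Ccl6, Ccl3 and Ccl4 (chr11:83339296-83478111), Ccl9 and Ccl6 differed by -2.42 and -1.43, while Ccl5 and Ccl4, at its ends, differed by 0.13 and 0.91. In the cluster of Cxcl5, Cxcl3, Cxcl15, Cxcl1 and Cxcl2 (chr5:91190490-91334593), Cxcl5 and Cxcl1 differed by -1.16 and -0.26. Cxcl9, Cxcl10 and Cxcl11 lie within 36 kb (chr5:92752191-92788626), with differences of -3.82, -1.49 and 0.11 in this order.

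**Figure D4:**
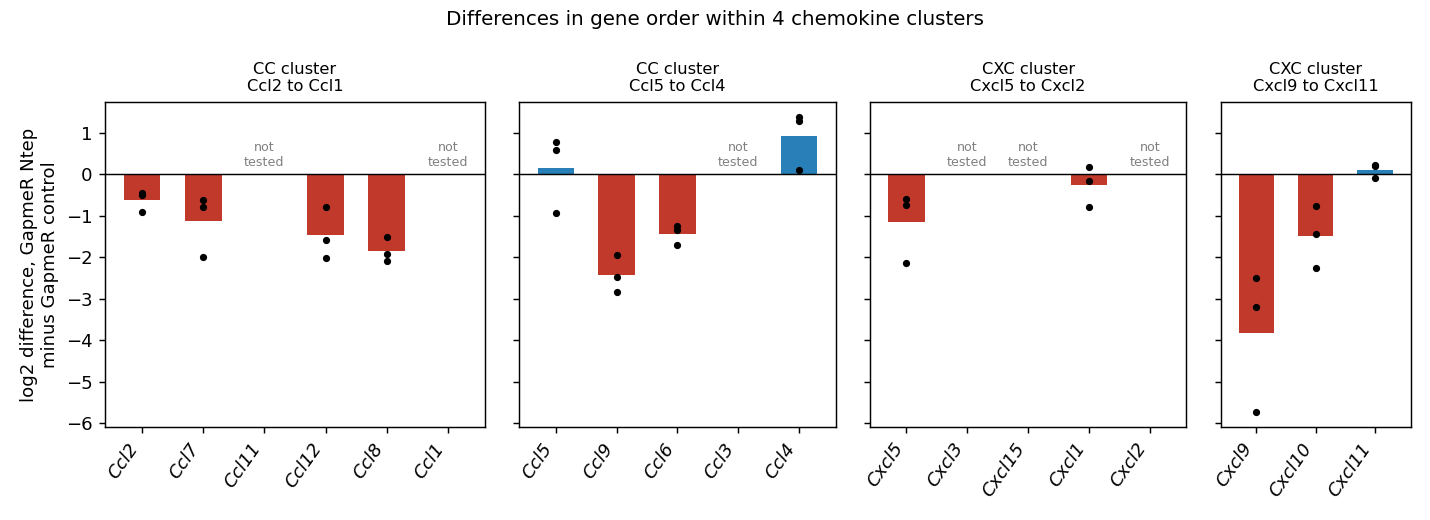
Log2 difference, GapmeR Ntep minus GapmeR control, of the genes of 4 chemokine clusters in their order on the chromosome (bars, by limma) with the 3 within-experiment differences as points. Ccl9 and Ccl6, at -2.42 and -1.43, lie between Ccl5 and Ccl4, at 0.13 and 0.91, and untested genes are marked.

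Of 23 chemokine receptor genes, 14 were on no array well above background, and 7 were tested. Cxcr3, the receptor of the interferon-linked chemokines, was well above background on 1 array of each group, and Cxcr4 was at the floor on every array. The 2 receptors that passed, after adjustment too, bind ligands without the usual G protein signal. Ccrl2, which binds chemerin, fell from 7186, 6066 and 4087 on the controls to 219, 830.4 and 771 (log2 -3.44, SE 0.56, limma adjusted p = 0.0336). Ackr3, a scavenger of Cxcl12 named Cxcr7 in the files, fell from 312, 335 and 259.5 to 121, 143 and 121 (-1.23, SE 0.18, adjusted p = 0.0291). The groups did not overlap for either, and without control replicate 2 the adjusted p was 0.146 for Ccrl2 and 0.143 for Ackr3.

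The 10 genes of the interferon pathway were all tested, and 9 had negative values (median log2 difference -0.82). Ifngr1, a subunit of the interferon-gamma receptor, was at 9480.1, 13706 and 9573 on the GapmeR Ntep arrays and 33489, 25037 and 23866 on the controls (-1.34, SE 0.24, limma adjusted p = 0.0376), without overlap. Irf9 (-1.03, adjusted p = 0.03) passed after adjustment too, and Stat2, with which it binds DNA (-1.46, adjusted p = 0.056), passed the unadjusted rule alone, and with blocks the adjusted one (0.0399). Irf1 differed by -0.84 (adjusted p = 0.0835) at its brightest probe and was at the floor on all GapmeR Ntep arrays at a dimmer one. The receptor genes Ifnar1, Ifnar2 and Ifngr2 differed by -0.09, -0.08 and 0.04, with 95% intervals of -0.87 to 0.70, -0.62 to 0.46 and -0.45 to 0.53.

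Of 14 genes of the NF-kB pathway, 13 were tested, with a median of -0.18. Nfkbie, an inhibitor of NF-kB that NF-kB itself induces, was the only one to pass the unadjusted rule, at 553, 372 and 547 against 3374, 1540 and 1541 (-2.05, SE 0.37, limma adjusted p = 0.0392). Another inhibitor, Nfkbib, was higher by 0.99 (adjusted p = 0.0458), just under 2-fold, and by 1.22 (adjusted p = 0.0306) at a second probe, while a dim probe differed by -0.20 (adjusted p = 0.624). Without control replicate 2 the second probe had an adjusted p of 0.144. Nfkbia, the classical inhibitor, differed by -0.44 (95% interval -0.84 to -0.05) and the subunit gene Rela by 0.29 (-0.34 to 0.93). Without control replicate 2 the adjusted p of Nfkbie was 0.138, that of Irf9 0.144 and that of Ifngr1 0.149.

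Many chemokines are also made by leukocytes, so 16 leukocyte and endothelial markers were read beside them. Their summed signal was 42942 to 75808 on the GapmeR Ntep arrays and 20379 to 27919.9 on the controls, most of it from Itgam, Cd68 and Cd14 together. Itgam, a subunit of a leukocyte integrin, was at 45776, 19443 and 30885 against 14655, 10652 and 12952 (1.26, SE 0.34, limma adjusted p = 0.0881) by its brightest probe, without overlap, and differed by -0.03 by a dim one. Ptprc, Adgre1, C1qa and C1qc were on no array well above background, and C1qa was at the floor on all of them. Of the 9 tested, 6 were higher and 3 lower. Cd68 rose from 5022, 4587 and 4380.5 to 11892, 11259.6 and 9404 (1.21, limma adjusted p = 0.0287), and Cd14 by 1.11 (adjusted p = 0.0627). With 1 array left out, Cd68 passed after adjustment without GapmeR Ntep replicate 2 (0.0489) and not without any other (0.059 to 0.139). A second probe of Cd68 differed by 0.68 (adjusted p = 0.143). Csf1r was at 4901, 2227 and 1196 against 1403, 142 and 86.7, with experiment 1 the highest in both groups, as for Ccl4. Its groups overlapped, with a difference of 3.19 (limma adjusted p = 0.151), and of 0.44 (adjusted p = 0.267) at a second probe. With experiments as blocks, Cd14 (0.0332), Itgam (0.0397) and Csf1r (0.0387) passed after adjustment. In a culture, more cells of a type and more RNA per cell cannot be told apart, and the part of these genes in the chemokine differences was not tested. Pf4 and Ppbp, chemokines whose names fall outside the pattern, differed by -1.42 and 0.73, with 95% intervals of -4.04 to 1.20 and -0.72 to 2.17.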

How the data were processed

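RNA from 3 GapmeR Ntep and 3 GapmeR control samples was measured on 1-color Agilent mouse arrays. Per the file headers, the deposited intensity of each spot was background-subtracted and detrended by Agilent Feature Extraction 10.7.3.1, with probe positions in mm9. The authors also deposited a quantile-normalized intensity table, used as an alternative. Here spots of a probe were averaged, quantile-normalized, floored at 20 and set on a log2 scale, and groups were compared in an unpaired, two-sided fit with limma 3.58.1 in R 4.3.3, on probes whose brighter group averaged 50 or more, with Benjamini-Hochberg adjustment over them. A gene is represented by its brightest probe. All adjusted p-values are from limma.

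The members and gene lists were chosen with earlier results of these data known. Named genes are the interferon-linked and tested NF-kB-linked chemokines, Ccl5 and those that passed a rule. Groups come from the sample labels, and experiment numbers from the study's array record. Arrays of 1 experiment deviated together (correlations of 0.466, 0.300 and 0.254, against -0.327 to 0.126 for other pairs), so the experiments pair the arrays. The number of arrays limits the precision. Promoter windows are from RefSeq, GRCm38.p6. The fit was tested on simulated data. Alternatives were 75th percentile scaling, the authors' table, normexp, the floor, filters, outlier spots, the block, the methods' unpaired test, the mean of a gene's probes, and each array left out. Added after seeing the data were the fit without experiment 1, any probe of a gene, and the list without Cxcl11. Some genes of the lists are not reported here by name.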

Additional observations from a re-analysis of the deposited data

How the results depend on the processing

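The count of 7 chemokine genes lower by the unadjusted rule was 4 with no filter on mean intensity, 3 with the methods' unpaired test on single genes, 4 without experiment 1, and 3 to 6 without 1 array. The count of 3 after adjustment was 0 with no filter, 0 with the methods' test, 5 when a probe had to be well above background on every array of a group, 5 with the mean of all tested probes of a gene, 5 with any tested probe, 6 with experiments as a replicate block, 1 without experiment 1, and 0 to 2 without 1 array. Over the whole array, 921 probes were lower after adjustment, and 183 with no filter, 98 with the methods' test, 1341 with the background filter, 1857 with the block, 504 without experiment 1 and 0 to 904 without 1 array. By the unadjusted rule 1567 probes were lower, and 1143 with no filter, 901 with the methods' test, 1592 without experiment 1 and 975 to 1915 without 1 array. Ccl8, Ccl9 and Ccl12 passed the unadjusted rule without any 1 array. No chemokine gene was higher by either rule in any of these settings. The median of the interferon-linked chemokines was -2.65 without Cxcl11 and -1.74 to -1.19 without 1 array. It was -1.27 with 75th percentile scaling, -1.59 with normexp and -1.10 without experiment 1. That of the NF-kB-linked ones, -0.49 in the main fit, was -0.56 to -0.46 without 1 array. It was -0.28 with no filter, -0.30 with normexp, -0.36 with 75th percentile scaling and -0.40 without experiment 1. Cxcl1 was at 0.0027 without experiment 1. Ccl5 ran from -0.075 to 0.54 without 1 array, below 0 without control replicate 2 or 3. Of the other values of single genes, 209 kept direction and their standing by the adjusted rule, 13 gained the adjusted call and 29 lost it. These counts leave out the unadjusted rule. Its call was lost by Ccl7, Cxcl9, Cxcl10 and Cxcl12 with the methods' test and without control replicate 1 or 2. Scaling by the 75th percentile moved the median of all probes from 0.06 to 0.22. The causes were not tested. With experiments as blocks, Cxcl9, Cxcl12 and Ccl6 gained the adjusted call and Ccl7 and Cxcl10 lost the unadjusted one, and outside the chemokines Stat2, Cd14, Itgam and Csf1r gained the adjusted call. Dim signals, as of Ccl12, leave only a bound.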
